A study of Mus musculus with 28 samples.

Results

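The cytochromes P450 of the Cyp2c family described here are Cyp2c29, Cyp2c37, Cyp2c38, Cyp2c39, Cyp2c50, Cyp2c54, Cyp2c55 and Cyp2c70. They were chosen by name, with earlier results of these data known. A gene counted as measured when a probe set of the array named it and no other gene. All 8 of the 8 had exactly 1 such probe set, among 18820 genes measured in this way, and all 8 lie on mouse chromosome 19. Liver RNA of 28 male C57BL/6J mice had been hybridised to 1 single-colour array a mouse, and values are log2 units. The switched group (MF_to_INT_24M, n = 8) ate a moderate-fat diet (MF, 25% of energy from fat) without interruption until 12 months of age, then an intermittent diet (INT), and was sampled at 24 months. The lifelong groups ate the intermittent diet from 9 weeks of age and were sampled at 6 months (INT_6M, n = 6), 12 months (INT_12M, n = 7) and 24 months (INT_24M, n = 7). On the intermittent diet, a week of the moderate-fat food eaten freely was followed by a week at 60% of the energy that control mice took in. The labels give no genetic change, and all mice had a fast of 4 hours, a gavage of carboxymethyl cellulose and a further fast of 6 hours before the liver was taken. The labels do not give the week of the diet cycle at sampling. Mice kept on the other diets of the study were not analysed here. A difference between ages is also one of time on the diet.

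Cyp2c enzymes sit in the endoplasmic reticulum, chiefly of hepatocytes, and oxidise fatty acids, steroids, retinoids and many drugs with electrons passed on by cytochrome P450 reductase. Several of the mouse enzymes turn arachidonic and linoleic acid into epoxides or hydroxy fatty acids, which epoxide hydrolases and other enzymes process further. Their genes are known targets of the nuclear receptors CAR and PXR, and several are expressed at different levels in male and female mouse liver under the pattern of growth hormone release. Cyp2c70 stands apart in function, because it makes the muricholic acids that distinguish the bile of mice from that of humans.

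The members are close relatives in a single gene cluster. In the RefSeq order along chromosome 19, Cyp2c55 is followed by Cyp2c29, Cyp2c39, Cyp2c38, Cyp2c37, Cyp2c54, Cyp2c50 and Cyp2c70, with other Cyp2c genes and pseudogenes in between. Promoter sequences of 300 bases (250 before to 50 after the start) were taken from RefSeq (GRCm38.p6) and were found for 7 of the 8 members. Cyp2c39 has a pair of annotated starts in that table, and Cyp2c54 was not matched. The Cyp2c39 starts lie on either side of the Cyp2c38 promoter, and the order above holds for the lower of them. The following promoters are shown because they belong to the pairs of members whose levels moved together most closely among those with a promoter. Capitals mark the longest runs of identical bases shared by Cyp2c38 with each Cyp2c39 start, and by Cyp2c37 with Cyp2c50. The positions, in the order printed and with their strands, are chr19:39463026-39463325 on the minus strand for Cyp2c38, chr19:39347096-39347395 and chr19:39510572-39510871 on the plus strand for Cyp2c39, chr19:39992174-39992473 on the plus strand for Cyp2c37 and chr19:40089429-40089728 on the plus strand for Cyp2c50.
Cyp2c38: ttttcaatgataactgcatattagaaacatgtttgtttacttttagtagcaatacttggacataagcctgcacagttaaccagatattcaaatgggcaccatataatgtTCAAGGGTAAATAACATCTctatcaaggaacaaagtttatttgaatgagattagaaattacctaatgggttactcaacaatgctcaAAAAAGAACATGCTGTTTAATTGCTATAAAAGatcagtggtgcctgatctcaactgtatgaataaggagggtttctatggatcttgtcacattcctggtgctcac
Cyp2c39 start 1: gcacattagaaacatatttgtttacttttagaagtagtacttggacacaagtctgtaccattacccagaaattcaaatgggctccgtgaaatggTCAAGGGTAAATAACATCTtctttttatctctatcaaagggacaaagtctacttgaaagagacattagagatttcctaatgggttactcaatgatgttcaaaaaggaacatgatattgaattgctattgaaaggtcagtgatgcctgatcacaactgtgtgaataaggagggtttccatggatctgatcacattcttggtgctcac
Cyp2c39 start 2: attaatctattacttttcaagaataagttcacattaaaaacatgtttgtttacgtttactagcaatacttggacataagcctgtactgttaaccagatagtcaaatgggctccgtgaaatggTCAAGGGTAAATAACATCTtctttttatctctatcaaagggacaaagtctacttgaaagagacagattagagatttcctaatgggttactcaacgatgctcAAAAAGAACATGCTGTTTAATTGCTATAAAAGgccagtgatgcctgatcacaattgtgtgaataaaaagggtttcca
Cyp2c37: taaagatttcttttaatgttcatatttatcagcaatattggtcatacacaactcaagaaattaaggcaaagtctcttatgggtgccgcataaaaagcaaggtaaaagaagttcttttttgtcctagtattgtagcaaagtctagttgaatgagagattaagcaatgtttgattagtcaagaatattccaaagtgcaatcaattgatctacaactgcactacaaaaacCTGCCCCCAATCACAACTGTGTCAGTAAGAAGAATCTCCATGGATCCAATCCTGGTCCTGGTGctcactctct
Cyp2c50: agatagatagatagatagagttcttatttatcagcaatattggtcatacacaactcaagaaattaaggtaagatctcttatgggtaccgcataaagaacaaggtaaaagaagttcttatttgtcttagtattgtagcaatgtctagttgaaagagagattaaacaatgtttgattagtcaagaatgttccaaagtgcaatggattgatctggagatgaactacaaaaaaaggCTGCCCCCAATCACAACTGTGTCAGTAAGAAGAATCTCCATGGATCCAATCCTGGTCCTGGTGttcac

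In a global alignment, the Cyp2c37 and Cyp2c50 promoters were identical at 86.6% of aligned columns, with a shared run of 63 bases around the start. The Cyp2c38 promoter was 78.1% identical to that of Cyp2c39 start 1 and 72.9% to that of start 2, and the shared run of 32 bases with start 2 holds the TATAAA of both. The Cyp2c29 promoter was 75.7% identical to Cyp2c39 start 1 and 70.8% to Cyp2c38. Cyp2c55 and Cyp2c70 were the more distant ones, with 52.7% and 51.0% identity to Cyp2c38. TATAAA, the core of a TATA box, was found on either strand in Cyp2c29, Cyp2c38, Cyp2c39 start 2, Cyp2c55 and Cyp2c70, and in 13.6% of the 32851 promoters in the table. GTTAAC, an element bound by the liver factor HNF1, was found in Cyp2c29, Cyp2c38 and Cyp2c39 start 2, and in 3.05% of all promoters. CAAAGTCCA, an HNF4 site, was found in Cyp2c70 alone among these 8 promoters, and in 0.475% of all. AGGTCA, a core element bound by many nuclear receptors, was found in Cyp2c29, Cyp2c39 start 1 and Cyp2c70, and in 16.3% of all. None of the 8 promoters held TTCNNNGAA, a STAT5 site (8.30% of all), or AGGTCA repeated with 1 or 4 bases between the copies, forms that contain the element already counted (0.0396% and 0.0152% of all).

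The array batches (G150, G151 and G152, read from the array names) held livers of every group: G150 held 6 switched livers and 4 of each lifelong group, and G151 and G152 held 1 or 2 of every group. Array medians lay between 5.23 and 5.31. The 12 measured hepatocyte markers had a mean level of 12.80 to 12.94 in every liver, so the labelled tissue carried its defining genes. None of the 12 passed in any comparison of ages or diets. In bulk tissue, fewer cells of a type and less RNA per cell cannot be told apart. The members' sequences resemble each other, and whether a probe set also took up RNA of a related gene was not tested.

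Cyp2c38, Cyp2c39 and Cyp2c55 were the members with a difference that passed in at least 1 comparison, and each had its highest mean in the switched livers and its lowest in the lifelong livers at 6 months. Cyp2c38 and Cyp2c39 are known in mouse as arachidonic acid epoxygenases, and Cyp2c39 also as a retinoic acid hydroxylase. Cyp2c55 is a hydroxylase of arachidonic acid that is strongly expressed in the large intestine and is induced in liver by ligands of CAR and PXR. None of the other 5 members passed in any comparison made here.

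Cyp2c38 had 10.76 as its lowest, 11.00 as its median and 11.24 as its highest value in switched livers. In lifelong livers the lowest, median and highest were 8.35, 9.48 and 10.47 at 6 months of age, 9.27, 10.35 and 10.82 at 12 months of age, and 10.29, 10.36 and 10.80 at 24 months of age. The switched livers thus lay in a narrow band above all those at 6 months, whereas the lifelong livers at 6 and 12 months were spread widely and overlapped. The SD was 0.19 in switched livers, and 0.82, 0.62 and 0.18 in lifelong livers at 6, 12 and 24 months. Among all measured genes, these SDs stood at percentile 65.6 in switched livers, and at 99.7, 99.6 and 62.2 at 6, 12 and 24 months. No test of a difference in spread was made. The pair of lowest livers, both at 8.35, were the single 6-month livers of batches G151 and G152.

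Cyp2c39 had 7.23 as its lowest, 8.01 as its median and 8.15 as its highest value in switched livers. In lifelong livers the lowest, median and highest were 5.03, 5.97 and 6.44 at 6 months of age, 5.95, 6.96 and 7.35 at 12 months of age, and 6.12, 6.78 and 7.54 at 24 months. Every switched liver lay above every 6-month liver, 7 of 8 lay above every 12-month liver, and 6 of 8 lay above every lifelong liver at 24 months. The 12-month and 24-month groups covered nearly the same range. Cyp2c39 was widely spread in every group, with an SD of 0.35 in switched livers and of 0.53, 0.59 and 0.47 in lifelong livers at 6, 12 and 24 months.

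Cyp2c55 had 4.75 as its lowest, 5.59 as its median and 6.05 as its highest value in switched livers. In lifelong livers the lowest, median and highest were 4.32, 4.54 and 4.66 at 6 months of age, 4.56, 4.85 and 5.63 at 12 months of age, and 4.41, 5.08 and 5.15 at 24 months. The 6-month livers were tightly grouped and all lay below the lowest switched liver, while the other 7 switched livers lay at 5.25 or above. The Cyp2c55 signal was low for a member, with a mean of 5.01 over all livers, at percentile 41.3 of all measured genes. All its values in lifelong livers at 6 and at 24 months lay below the lowest array median, 5.23, as did its median at 12 months, 4.85. No detection call was available for any probe set.

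**Figure D1:**
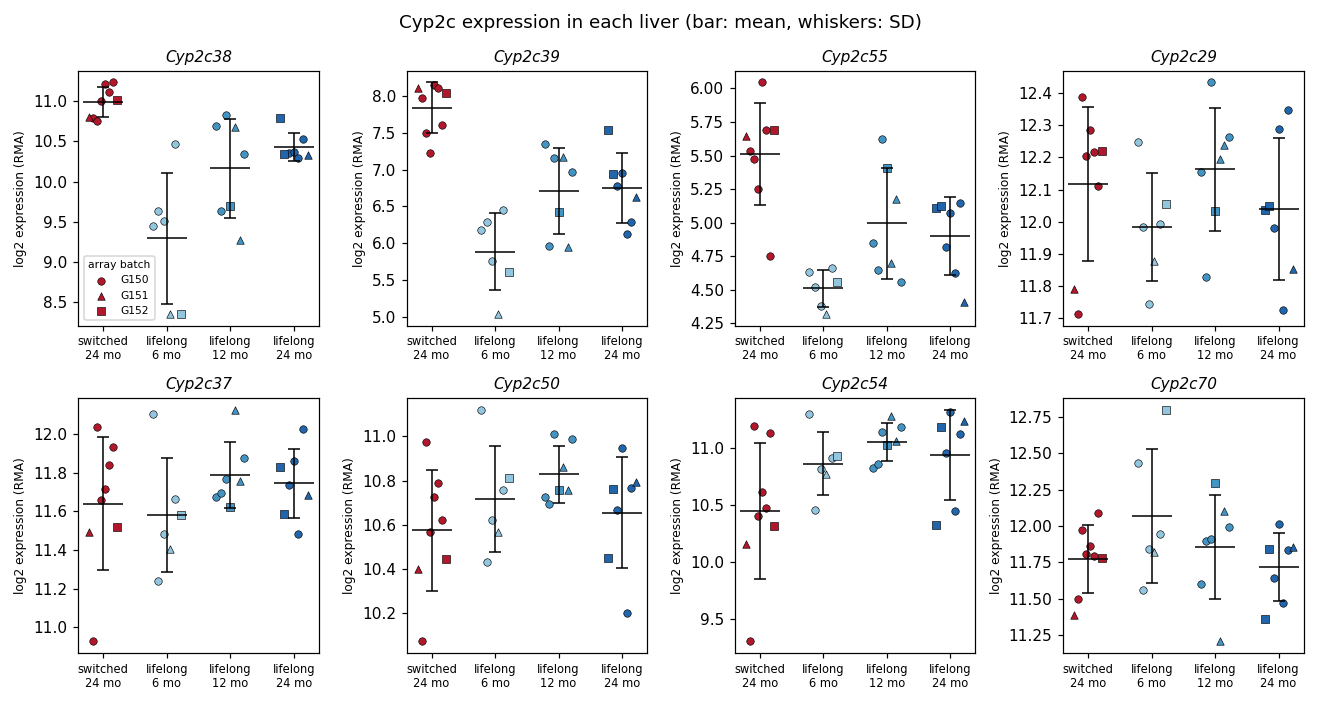
Log2 expression (RMA) of each Cyp2c member in each liver, 1 panel a gene with its own axis, with the switched group at the left and the lifelong groups at 6, 12 and 24 months to its right. Points are livers, shapes are array batches, long bars are means and whiskers are SD. For Cyp2c38 the switched livers sit between 10.76 and 11.24, above all 6-month livers, whose values run from 8.35 to 10.47, and the panels of Cyp2c29, Cyp2c37 and Cyp2c50 show overlapping groups.

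With age on the lifelong diet, Cyp2c38 rose. It averaged 10.43 ± 0.18 in lifelong livers at 24 months and 9.29 ± 0.82 in those at 6 months (SD, n = 7 and n = 6), a difference of 1.17 (SE 0.25) or 2.26-fold. The limma adjusted p was 0.00784 after Benjamini-Hochberg adjustment over all 35556 probe sets, and each of the 7 livers at 24 months exceeded the 6-month mean. Within array batches G150, G151 and G152 the difference was 0.63, 1.98 and 2.22. In batch G150 alone, which held 4 livers of each age, it did not pass (limma adjusted p = 0.236). Cyp2c38 was the 1 of 8 members that passed, against 4.73% of all probe sets in this comparison.

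Cyp2c39 averaged 6.75 ± 0.47 in lifelong livers at 24 months and 5.88 ± 0.53 in those at 6 months (SD, n = 7 and n = 6). The difference of 0.85 (SE 0.26) lay just outside the threshold, with a limma adjusted p of 0.0596. It passed in 2 of 13 fits with 1 array left out, those without lifelong 6-month replicate 5 or lifelong 24-month replicate 5 (limma adjusted p = 0.0392 and 0.0451). In the other fits the limma adjusted p ran up to 0.18. Cyp2c55 differed by 0.36 (SE 0.17, limma adjusted p = 0.257), with 6 of 7 livers at 24 months over the 6-month mean. The median difference over the 8 members was 0.13, beside -0.02 over all probe sets.

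Between 12 and 6 months, the same 3 genes had the largest differences among the members, and none passed. Cyp2c38 averaged 10.16 ± 0.62 at 12 months and 9.29 ± 0.82 at 6 months, with a difference of 0.92 (SE 0.25, limma adjusted p = 0.0866). The difference of Cyp2c39 was 0.86 (SE 0.26, limma adjusted p = 0.124) and that of Cyp2c55 was 0.50 (SE 0.17, limma adjusted p = 0.179). Of the 8 members 0 passed, against 0.591% of all probe sets. An unadjusted p under 0.05 was reached by 3 of 8 members and by 13.1% of all probe sets. Cyp2c38 passed in 1 of 13 fits with 1 array left out, that without lifelong 6-month replicate 5, the liver with 10.47 (limma adjusted p = 0.0225). In the other fits its limma adjusted p ran up to 0.254.

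Between 24 and 12 months, no member stood apart. The differences ran from -0.19 for Cyp2c70 to 0.25 for Cyp2c38, and that of Cyp2c39 was -0.01 with a 95% interval of -0.53 to 0.52. With limma 0 of 8 members passed, against 0.0253% of all probe sets, and 0 of 8 reached an unadjusted p under 0.05, against 11.1% of all. The comparisons of 24 and of 12 months with 6 months share the 6-month livers, so their similar values are not separate evidence.

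The comparison of switched with lifelong livers at 24 months sets 2 diet histories against each other at a matched age. Cyp2c39 averaged 7.84 ± 0.35 in switched livers and 6.75 ± 0.47 in lifelong livers (SD, n = 8 and n = 7), a difference of 1.10 (SE 0.25) or 2.15-fold. All 8 switched livers lay above the lifelong mean. The limma difference did not pass over all probe sets (adjusted p = 0.169, unadjusted 0.000138), with values of 1.23, 1.48 and 0.80 within the array batches. It passed in 1 of 15 fits with 1 array left out, that without lifelong 24-month replicate 1, the lifelong liver with 7.54 (limma adjusted p = 0.0437). In the other fits the limma adjusted p ran up to 0.32.

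Cyp2c55 averaged 5.51 ± 0.38 in switched livers and 4.90 ± 0.29 in lifelong livers, and 7 of 8 switched livers lay above the highest lifelong liver. Its difference of 0.65 (SE 0.16) did not pass (limma adjusted p = 0.235). Cyp2c38 averaged 10.99 ± 0.19 in switched livers and 10.43 ± 0.18 in lifelong livers, with a difference of 0.49 (SE 0.23, limma adjusted p = 0.646). Cyp2c54, an enzyme that forms epoxides of arachidonic and linoleic acid, differed in the other direction, by -0.51 (SE 0.21, limma adjusted p = 0.571). These 4 of the 8 members reached an unadjusted p under 0.05, as 7.58% of all probe sets did. After adjustment 0 of 8 passed, against 0.0197% of all probe sets. The 95% intervals of the other 4 members lay within -0.40 and 0.41.

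To place the switched group against the younger lifelong groups, a pair of comparisons was added after the data had been seen. They mix age with diet history and use the same switched livers, so they are not separate support. Against the 6-month livers, Cyp2c39 averaged 7.84 ± 0.35 in switched livers and 5.88 ± 0.53 in lifelong 6-month livers, a rise of 1.95 (SE 0.25) or 3.87-fold (limma adjusted p = 2.94e-05). Cyp2c38 rose by 1.66 (SE 0.24, limma adjusted p = 0.000114) and Cyp2c55 by 1.01 (SE 0.17, limma adjusted p = 0.000445). These 3 of 8 members passed, all higher, beside 10% of all probe sets that passed and 4.66% that passed as higher. For the same 3 genes every switched liver lay above every 6-month liver, which held for 1.49% of all probe sets. In batches G151 and G152 alone, with 2 livers of each group, 0 of the 3 passed, although the differences were larger there, at 2.76 for Cyp2c39, 2.56 for Cyp2c38 and 1.23 for Cyp2c55.

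Against the 12-month livers, Cyp2c39 averaged 7.84 ± 0.35 in switched livers and 6.71 ± 0.59 in lifelong 12-month livers, a rise of 1.10 (SE 0.25, limma adjusted p = 0.0192). It was the 1 of 8 members that passed, beside 2.32% of all probe sets. It no longer passed when switched replicate 1, lifelong 12-month replicate 2 or lifelong 12-month replicate 4 was left out (limma adjusted p = 0.068, 0.0555 and 0.0517). Cyp2c38 differed by 0.74 (limma adjusted p = 0.0872), Cyp2c55 by 0.50 (limma adjusted p = 0.0932) and Cyp2c54 by -0.61 (limma adjusted p = 0.12). Cyp2c38 passed without lifelong 12-month replicate 5, and Cyp2c55 passed without lifelong 12-month replicate 3 or without switched replicate 7 (limma adjusted p = 0.0432, 0.0452 and 0.0308). These were 1 of 15 fits with 1 array left out for Cyp2c38 and 2 of 15 for Cyp2c55. In the other fits the limma adjusted p ran up to 0.195 and 0.217.

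**Figure D2:**
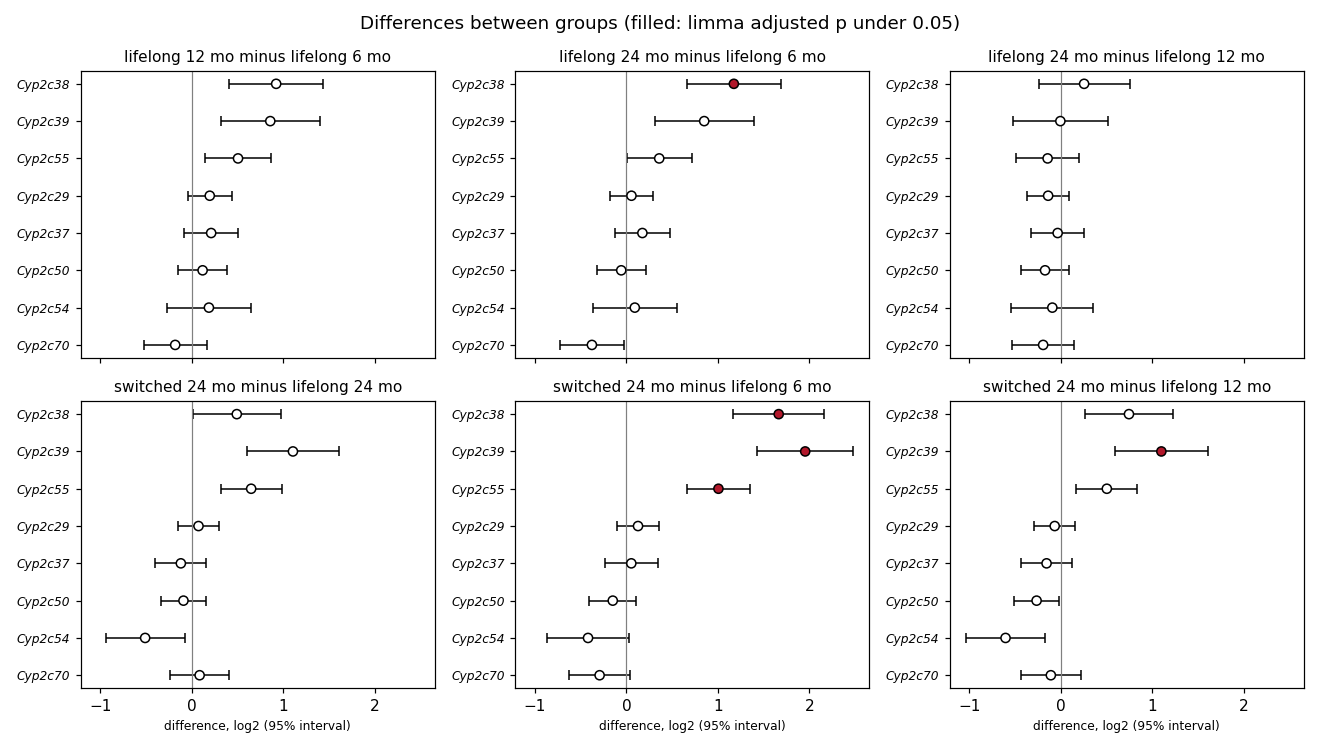
Differences in log2 expression for each of the 8 members, 1 panel a comparison, written as the first group minus the second. Points are limma estimates, bars are 95% intervals and filled points have an adjusted p under 0.05 over all probe sets. The filled points are Cyp2c38 for lifelong 24 against 6 months, Cyp2c38, Cyp2c39 and Cyp2c55 for switched against lifelong 6 months, and Cyp2c39 for switched against lifelong 12 months.

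Cyp2c29, Cyp2c37, Cyp2c50 and Cyp2c54 make epoxides and hydroxy derivatives of arachidonic acid, and Cyp2c29 is a classic target of phenobarbital in mouse liver. Their levels overlapped between all groups. Cyp2c29 averaged 12.12 ± 0.24 in switched livers, and 11.98 ± 0.17, 12.16 ± 0.19 and 12.04 ± 0.22 in lifelong livers at 6, 12 and 24 months. Cyp2c37 averaged 11.64 ± 0.34 in switched livers, and 11.58 ± 0.29, 11.79 ± 0.17 and 11.74 ± 0.18 in lifelong livers at 6, 12 and 24 months. Cyp2c50 averaged 10.57 ± 0.27 in switched livers, and 10.72 ± 0.24, 10.83 ± 0.13 and 10.65 ± 0.25 in lifelong livers at 6, 12 and 24 months. No step between these means passed in limma, and for Cyp2c29 the whole range over 28 livers was 0.72.

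Cyp2c54 was the most variable of these 4 genes. Its lowest, median and highest values were 9.30, 10.44 and 11.19 in switched livers, 10.45, 10.86 and 11.30 in lifelong livers at 6 months of age, 10.82, 11.06 and 11.28 at 12 months of age, and 10.33, 11.12 and 11.31 at 24 months. The lowest value belonged to switched replicate 2, which was also the lowest switched liver for Cyp2c29, Cyp2c37 and Cyp2c50. Without that liver, the difference of Cyp2c54 between switched and lifelong livers at 24 months was -0.35, in place of -0.51. The 6-month replicate 1 was the highest of its group for all 4 genes. In the 12-month and 24-month groups the 4 genes did not all share their highest or lowest liver.

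Cyp2c70, the muricholic acid enzyme, showed no difference that passed. It averaged 11.77 ± 0.23 in switched livers, and 12.07 ± 0.46, 11.86 ± 0.36 and 11.72 ± 0.23 in lifelong livers at 6, 12 and 24 months. The largest difference of Cyp2c70 was -0.38 between lifelong livers at 24 and 6 months (SE 0.17, limma adjusted p = 0.208), with 0 of 7 livers at 24 months over the 6-month mean. Within array batches that difference was -0.21, 0.04 and -1.20, and the single 6-month liver of batch G152, lifelong 6-month replicate 6, had the highest Cyp2c70 value of all, 12.80. Without that liver the difference was -0.22.

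The members varied from mouse to mouse more than most genes did. With group and array batch taken out, the SD of Cyp2c39 was 0.49, at percentile 98.4 of all measured genes, and that of Cyp2c38 was 0.47, at percentile 98.1. Cyp2c54, Cyp2c55, Cyp2c70 and Cyp2c37 stood at percentiles 97.4, 94.3, 93.9 and 90.6. Cyp2c50 and Cyp2c29 stood at percentiles 86.6 and 80.3. These percentiles are not adjusted for brightness.

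Across the 28 livers, most members fell into a pair of sets that varied together, Cyp2c38 with Cyp2c39, and Cyp2c29 with Cyp2c37, Cyp2c50 and Cyp2c54. Cyp2c55 and Cyp2c70 belonged less clearly to either. Cyp2c38 and Cyp2c39 had a Pearson's r of 0.89 and a Spearman's rho of 0.92 (permutation test with 100000 resamples, p = 1e-05 each, the smallest it can give, and adjusted p = 9.3e-05 over 28 pairs). Without the 2 livers farthest from the median of Cyp2c38, r was 0.87. The residuals from group and batch had an r of 0.80, and the 18 livers of batch G150 had an r of 0.86. Mice with much Cyp2c38 for their group and batch thus had much Cyp2c39 too. Batches G151 and G152 held 5 livers each, too few for an r.

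**Figure D3:**
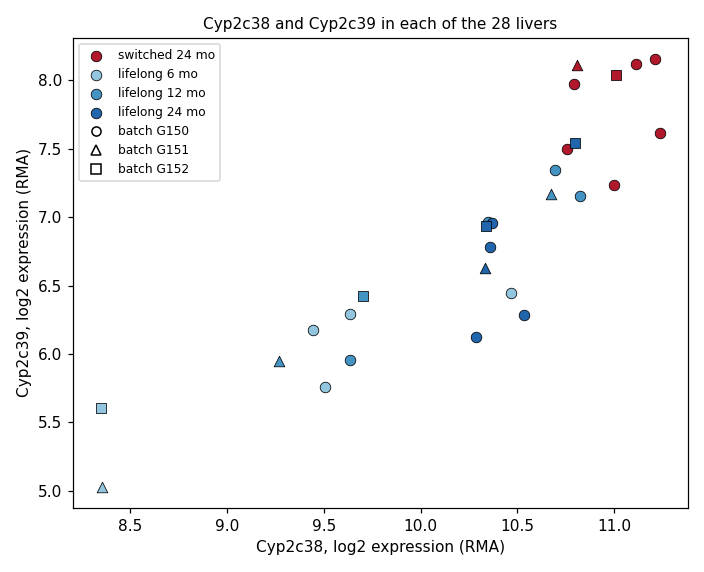
Cyp2c38 (horizontal axis) and Cyp2c39 (vertical axis) in log2 expression, 1 point for each of the 28 livers, with groups by colour and array batches by shape. The points run from 8.35 for Cyp2c38 and 5.03 for Cyp2c39 in a 6-month liver to the switched livers at the upper right, and r is 0.89.

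Cyp2c50 and Cyp2c54 had an r of 0.86 and a rho of 0.86 (permutation p = 1e-05 each, adjusted p = 9.3e-05), an r of 0.81 without the 2 outermost livers, of 0.88 over residuals and of 0.84 in batch G150. Cyp2c37 joined this pair, with an r of 0.77 to Cyp2c50 and 0.74 to Cyp2c54 (permutation test, adjusted p = 9.3e-05 and 0.000112) and residual r values of 0.80 for each. Cyp2c29 had an r of 0.69 to Cyp2c37 and of 0.69 to Cyp2c50 (permutation test, adjusted p = 0.00014 and 0.00024), and 0.49 to Cyp2c54 (adjusted p = 0.02), which was 0.31 without the 2 outermost livers. Cyp2c70 had an r of 0.55 to Cyp2c50 and of 0.47 to Cyp2c54 (permutation test, adjusted p = 0.00865 and 0.0371), and residual r values of 0.62 and 0.63. The r of Cyp2c70 of 0.30 to Cyp2c29 and of 0.22 to Cyp2c37 did not pass. In batch G150 alone, the r of Cyp2c70 was higher, at 0.53 to Cyp2c29, 0.75 to Cyp2c37, 0.79 to Cyp2c50 and 0.70 to Cyp2c54. Between the sets, the r of Cyp2c38 or Cyp2c39 with Cyp2c50 or Cyp2c54 lay between -0.39 and -0.12, and that with Cyp2c29 or Cyp2c37 between 0.06 and 0.29, and none of these 8 pairs passed. Over residuals, the r of the 8 pairs lay between -0.10 and 0.21.

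Cyp2c55 was related to Cyp2c39 and Cyp2c38 with an r of 0.75 and 0.60 and a rho of 0.73 and 0.72 (permutation test, adjusted p of r = 0.000112 and 0.00245). Its residuals from group and batch had an r of 0.28 and 0.13 with theirs, and in batch G150 the r, which holds the group differences, was 0.79 and 0.73. The relation of Cyp2c55 to this pair was thus smaller with the group means taken out, whereas that between Cyp2c38 and Cyp2c39 stayed at 0.80. With Cyp2c29, Cyp2c55 had an r of 0.40 that did not pass (permutation test, adjusted p = 0.0711) and a residual r of 0.37. Cyp2c70 had an r of -0.49 to Cyp2c38 (permutation test, adjusted p = 0.0204) and of -0.50 over residuals. The rho of -0.32 did not pass, and r was -0.36 without the 2 outermost livers and -0.14 in batch G150. In all, 12 of 28 pairs passed by Pearson's r. Arrays, batches and related sequences are shared by the members, so r describes these livers.

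**Figure D4:**
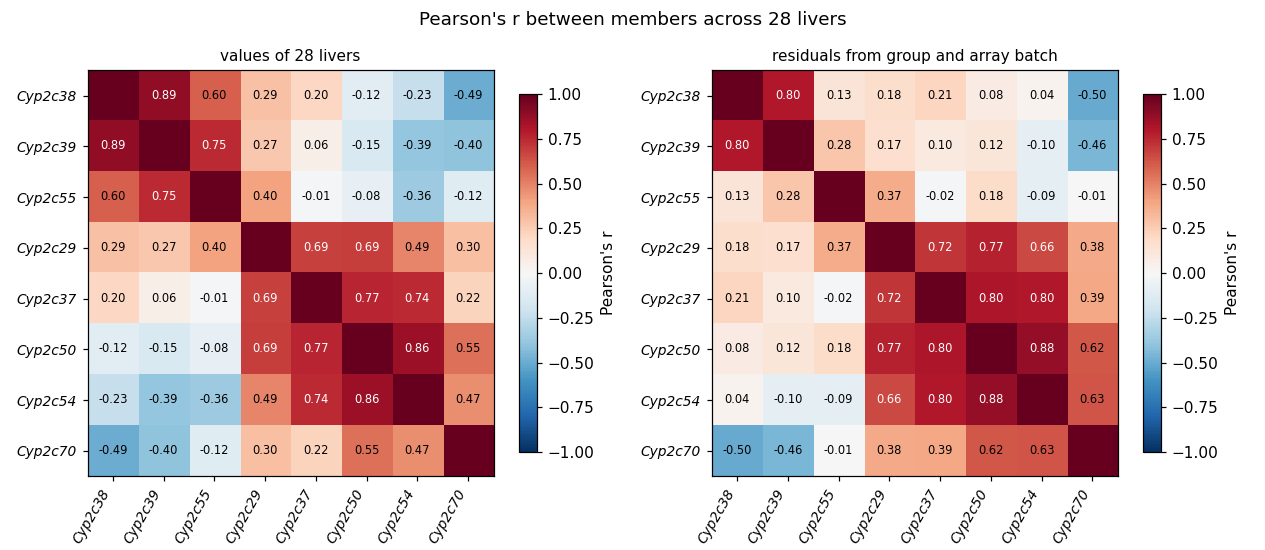
Pearson's r between each pair of members across the 28 livers, with the values as deposited at the left and the residuals from group and array batch at the right. Red is positive and blue is negative, and the number in each cell is r. The block of Cyp2c29, Cyp2c37, Cyp2c50 and Cyp2c54 and the pair of Cyp2c38 and Cyp2c39 stay positive in both, whereas the r of Cyp2c55 with Cyp2c38 is 0.60 at the left and 0.13 at the right.

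Among 17998 other genes, those whose residuals from group and batch followed a member most closely over the 28 livers were named without a test. For Cyp2c38 the closest was Slc22a27, a solute carrier gene expressed more in female than in male mouse liver (r = 0.76 over residuals and 0.89 over values), before Gdi2 and Ttr. For Cyp2c39 it was Bche, the gene of butyrylcholinesterase (r = 0.79 over residuals and 0.92 over values), before Vnn3 and Tbca. For Cyp2c55 it was Tdp2, a DNA repair phosphodiesterase (r = 0.77), before Lrriq3 and Ift74. Pipox, a peroxisomal oxidase of sarcosine and pipecolic acid, was closest to Cyp2c29 (r = 0.82, before Sirt3 and Asb7) and next to closest to Cyp2c37 (r = 0.76), after Hal, the histidine ammonia-lyase (r = 0.77), and before Agt. Serpina1d, an antitrypsin gene, was closest to Cyp2c50 (r = 0.84), before Inmt and Dock4. Nlrp6 was closest to Cyp2c54 (r = 0.83), before Cyp2c23 (r = 0.82) and Dock4. Slc22a7, an organic anion transporter, was closest to Cyp2c70 (r = 0.81), before Selenbp2 and Snx29.

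Of the other Cyp2c genes, Cyp2c23, Cyp2c65, Cyp2c66, Cyp2c67 and Cyp2c68 were measured, and 0 of 5 passed in limma in any of the 4 comparisons of ages and diets. The epoxygenase gene Cyp2c23 had its lowest, median and highest values at 11.48, 11.88 and 12.52 in switched livers, at 12.56, 12.61 and 12.73 in lifelong livers at 6 months, at 12.38, 12.49 and 12.54 at 12 months, and at 11.94, 12.30 and 12.56 at 24 months. Every switched liver thus lay below every 6-month liver for Cyp2c23. The limma results of switched livers against 6-month and 12-month livers were not read for these other Cyp2c genes. Whether Cyp2c23 passed there is thus not given, and the gap is a description of these livers. The share of all probe sets with such a gap downward is not given here. The group means of Cyp2c23 lay in the order opposite to those of Cyp2c38. It differed by -0.35 between switched and lifelong livers at 24 months (limma adjusted p = 0.468) and by -0.31 between lifelong livers at 24 and 6 months (limma adjusted p = 0.184). Cyp2c67 differed by -0.22 and Cyp2c68 by 0.25 between 24 and 6 months (limma adjusted p = 0.234 and 0.42). Cyp2c65 and Cyp2c66 are known mainly from the intestine. Between 24 and 6 months they differed by -0.03 and 0.16 (limma adjusted p = 0.873 and 0.579).

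Genes that serve or control the Cyp2c enzymes are read beside the share of all probe sets that passed, which was 0.591% at 12 against 6 months, 4.73% at 24 against 6 months, 0.0253% at 24 against 12 months and 0.0197% for switched against lifelong livers at 24 months. Of 15 electron donors and genes of haem supply, 0 passed in any of the 4 comparisons, a count near these shares. The smallest p between 24 and 6 months belonged to Cyb5r3, the reductase of cytochrome b5, with a difference of 0.19 (limma adjusted p = 0.101). Of 23 transcription factors and receptors that are known to regulate Cyp2c genes, 0 passed, which is also near these shares. Between 24 and 6 months, Stat5a differed by 0.32 and Cebpb by -0.32 (limma adjusted p = 0.0662 and 0.0679), and the PXR gene Nr1i2 differed by -0.14 (adjusted p = 0.554). Nr1i3, which encodes CAR, had no probe set of its own. Of 14 epoxide hydrolases and eicosanoid genes, Pla2g6, a phospholipase, fell by 0.57 between 12 and 6 months (limma adjusted p = 0.0403), and no other call was made. Ephx2, the soluble epoxide hydrolase that opens the epoxides made by Cyp2c enzymes, differed by -0.22 between 24 and 6 months (adjusted p = 0.0645) and by -0.22 between switched and lifelong livers at 24 months (adjusted p = 0.343).

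Some other targets of CAR and PXR changed. Between lifelong livers at 24 and 6 months, 3 of 21 rose and 0 fell, beside 2.1% of all probe sets that rose. They were the P450 gene Cyp2b9, by 3.22 (limma adjusted p = 0.0129), and the glutathione transferases Gstm2, by 0.68, and Gstm3, by 0.45 (adjusted p = 0.0164 and 0.018). Between switched and lifelong livers at 24 months, 1 of 21 rose, the P450 gene Cyp2b13, by 3.26 (limma adjusted p = 0.000118), beside 0.0197% of all probe sets that passed. In that comparison Cyp2b10, the classic CAR target, differed by 1.06 (adjusted p = 0.485) and Cyp3a11, the classic PXR target, by 0.46 (adjusted p = 0.229). Between lifelong livers at 24 and 6 months, Cyp2b10 differed by 0.28 and Cyp3a11 by -0.29 (limma adjusted p = 0.775 and 0.166). The list medians were 0.12 and 0.28 in these comparisons, beside -0.02 and 0.00 over all probe sets.

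Some genes with a known difference between the sexes changed as well. Of 20 genes expressed more in female liver, 4 rose and 0 fell between lifelong livers at 24 and 6 months, beside 2.1% of all probe sets that rose. Those that rose were Cyp17a1 by 2.11, Slc22a27 by 2.18, Slc22a26 by 2.00 and Cyp2b9 by 3.22. Of 22 genes expressed more in male liver, 0 rose and 8 fell, among them Ugt2b38 by 1.05 and the P450 genes Cyp2d9 by 0.43 and Cyp4a12b by 1.28, beside 2.63% of all probe sets that fell. Between switched and lifelong livers at 24 months, Cyp2b13 and Hao2 rose, by 3.26 and 1.80, as 2 of 20, and Susd4 and Cyp2d9 fell, by 1.24 and 0.54, as 2 of 22. Of all probe sets, 0.0197% passed in that comparison, in either direction. Between 12 and 6 months Cyp17a1, which rose by 1.25, was the 1 gene of both lists that passed, beside 0.591% of all probe sets. Between 24 and 12 months no gene of the lists passed, beside 0.0253% of all probe sets. These lists were chosen with earlier results of these data known. Cyp2b9 and Cyp2b13 stand in both the female-biased list and that of CAR and PXR targets. Cyp7b1, one of the 8 male-biased genes that fell, stands in the bile acid list as well and is counted in both.

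In the bile acid list that surrounds Cyp2c70, 2 of 27 genes fell between 24 and 6 months, the oxysterol hydroxylase Cyp7b1 by 0.93 and the phospholipid transporter Abcb4 by 0.32 (limma adjusted p = 0.033 and 0.0332), beside 2.63% of all probe sets that fell, and none passed in the other 3 comparisons. Of 19 pericentral genes, which mark the zone where P450 enzymes are most abundant, 1 rose between 24 and 6 months, Slc1a2 by 0.35 (limma adjusted p = 0.0489), a share near the 2.1% of all probe sets that rose. Of 15 periportal genes, 3 rose and 2 fell in that comparison, beside the same 2.1% and 2.63%, led by Apoa4, by 0.80, and Hsd17b6, which fell by 1.22. Between switched and lifelong livers at 24 months, 0 of 19 and 0 of 15 passed.

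Markers of other cells moved with age beside Cyp2c38. Between lifelong livers at 24 and 6 months, 8 of 13 B cell and plasma cell markers and 3 of 18 macrophage markers rose, as did 5 of 24 acute phase and cytokine genes, beside 2.1% of all probe sets. The 4 acute phase genes with the smallest adjusted p were Itih4, which rose by 0.35, Apcs by 0.87, Lcn2 by 2.08 and Saa2 by 2.58. The mean level of the B cell and plasma cell list ran from 5.64 to 6.68 in livers at 24 months and from 5.26 to 5.53 at 6 months, and that of the macrophage list from 7.34 to 8.66 at 24 months and from 7.41 to 7.81 at 6 months. The mean level of the 12 intestinal epithelium markers, a tissue in which Cyp2c55 is abundant, ran from 4.90 to 5.41 in switched livers. It ran from 5.07 to 5.27 in lifelong livers at 24 months and from 5.17 to 5.33 at 6 months. In the 4 comparisons of ages and diets 0 of 12 passed. These markers were not tested between switched and lifelong 6-month livers, the comparison in which Cyp2c55 passed. Between switched and lifelong livers at 24 months, no marker of any of the 11 cell type lists passed in limma. The part of these cells in the differences of Cyp2c38, Cyp2c39 and Cyp2c55 was not tested.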

How the data were processed

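Liver RNA of 28 mice was hybridised to single-colour arrays, 1 array a mouse. Per the submitters' processing notes the authors summarised the arrays with RMA. The deposited table holds log2 values and was used unchanged. Neither a version of RMA nor the set of arrays normalised together is given in the sources used here. Of 35556 probe sets, 21218 named exactly 1 gene. The probe set with the highest mean stood for a gene, and no probe set was filtered out.

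A linear model with terms for group (4) and array batch was fitted to the 28 arrays with limma 3.58.1 in R 4.3.3 and moderated by empirical Bayes. The two-sided p of every probe set entered the Benjamini-Hochberg adjustment, at a threshold of 0.05. SE is moderated, and folds are 2 to the power of the difference. Relations between members used permutation tests with 100000 resamples. The mean level of a list averages its measured genes in 1 liver. Promoters were compared by global alignment. Python 3.11.15, pandas 2.3.3, numpy 2.4.6 and matplotlib 3.10.9 were used, and the fit was tested on simulated data.

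The members and lists were chosen with earlier results of these data known. Genes were named by rule: every member, the 3 closest genes of each by residual r (passing over predicted genes), up to 4 passing genes of each list with the smallest adjusted p, or the 2 with the smallest p where none passed. Nr1i2, Cyp2b10 and Cyp3a11 were named outside this rule, for their role and with their values known. The number of arrays limits the precision. Alternatives were no batch term, batches apart, only the groups compared, a filter on dim probe sets, only 1-gene probe sets, other normalisations, moderation and array weights, a replicate block, a pair of arrays with an added name suffix left out, and each array left out in turn.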

Additional observations from a re-analysis of the deposited data

How the results depend on the processing

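Across 12 other settings and 6 comparisons, 560 of 576 values of single members kept their direction and their side of the threshold, and 650 of 672 did when 1 array was left out. Most of these values did not pass in the report and so had no call to lose, and some settings leave the estimate itself unchanged. A call was lost in 7 of the 576, all with array batches taken apart, and in 3 of the 672. Between lifelong livers at 24 and 6 months, the count of passing members, 1 in the report, was 0 in batch G150 alone and 0 in batches G151 and G152 alone, where fewer arrays enter. It was 2 without the dimmest 30 percent of probe sets, 2 with only 1-gene probe sets and 2 with array weights, the added gene being Cyp2c39 (limma adjusted p = 0.0439, 0.0381 and 0.0476), and 1 to 2 with 1 array left out. Cyp2c38 in this comparison kept an adjusted p of 0.00139 to 0.0439 over the arrays left out. The count was 0 to 1 with 1 array left out for lifelong livers at 12 against 6 months, and 0 to 1 for switched against lifelong livers at 24 months. For switched against lifelong 6-month livers, the count of 3 was 0 in batches G151 and G152 alone and 3 to 3 with 1 array left out. For switched against lifelong 12-month livers, the count of 1 was 0 in batch G150 alone, 0 in batches G151 and G152 alone, 2 with array weights (Cyp2c55) and 0 to 2 with 1 array left out.

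Reversals were confined to differences that did not pass. They were Cyp2c29 at 24 against 6 months (-0.00821 in batches G151 and G152), Cyp2c37 at 24 against 12 months (0.0236 in batch G150), Cyp2c39 at 24 against 12 months (0.041 with no batch term and 0.441 in batches G151 and G152) and Cyp2c70 in switched against lifelong livers at 24 months (-0.0361 in batches G151 and G152). With 1 array left out, the range was -0.118 to 0.0318 for Cyp2c50 at 24 against 6 months, -0.0798 to 0.0209 for Cyp2c37 and -0.149 to 0.107 for Cyp2c39 at 24 against 12 months, and -0.0233 to 0.158 for Cyp2c37 in switched against lifelong 6-month livers. Their cause was not tested.

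With replicate number as a block beside array batch, the member counts were 0, 1, 0 and 0 for the 4 comparisons of ages and diets and 3 and 1 for the added ones, and no call changed. Deviations of same-numbered livers of different groups had a median r of 0.0227 over 39 pairs, from -0.14 to 0.14. For livers with different numbers the median r was 0.0021 over 254 pairs, from -0.32 to 0.19. No pairing by number was seen, though such values cannot exclude one. The number of pairs of members that passed was 11 to 13, beside 12. The count of all passing probe sets, which sets how small a p must be, was 1681 at 24 against 6 months (3 to 2271 over the settings, 831 to 2370 with 1 array left out), 210 at 12 against 6 months (0 to 518, 7 to 546), 9 at 24 against 12 months (0 to 39, 1 to 124) and 7 for switched against lifelong livers at 24 months (0 to 10, 1 to 36). For switched livers against lifelong livers at 6 and 12 months it was 3572 (4 to 4003, 2475 to 3849) and 826 (1 to 1021, 313 to 1299). The mean over several probe sets of a member gave no value, since each member has 1. No level of a member was an outlier of its group, and depth does not apply to arrays, which have no detection call here.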
